A study of Mus musculus with 8 samples.

Results

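Genes of the RANK, CD40 and NF-kB pathway and of T cell costimulation were followed through single-cell RNA sequencing of mouse thymic epithelial cells (TEC). They were 10 genes, taken by symbol from the 27514 genes listed in both data sets of the series, and all 10 had a row in each of the 8 matrices. They were 4 receptors (Tnfrsf11a, Tnfrsf11b, Cd40 and Ltbr), 4 NF-kB subunits (Relb, Nfkb2, Nfkb1 and Rel) and 2 costimulatory ligands (Cd80 and Cd86). All libraries came from thymi of wild-type (WT) mice of strain C57 B6 (CD45.2), sorted as DAPI- EpCAM+ CD45- cells. E13.5 TEC were not sorted further, cortical TEC (cTEC) were Ly51+ UEA-1- and medullary TEC (mTEC) were Ly51- UEA-1+. Adult cTEC and adult mTEC had 2 libraries each, and cTEC of newborn (NB) mice, cTEC of E17.5 and E15.5 embryos and TEC of E13.5 embryos had 1 each. The labels give no age for the adults. Adult replicate 1 of both lineages belonged to data set 1 with E13.5, E15.5 and NB, and adult replicate 2 of both belonged to data set 2 with E17.5. Fetal thymi were dissociated with trypsin and EDTA, and newborn and adult thymi with Liberase and DNase, so postnatal age and dissociation cannot be told apart. The growth label names bone marrow as the source, whereas the tissue label names thymus, and the epithelial markers described with the depth below match the latter.

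RANK, encoded by Tnfrsf11a, CD40 and the lymphotoxin beta receptor, encoded by Ltbr, are members of the TNF receptor superfamily. Their ligands are made by lymphoid cells of the thymus. In mTEC these receptors are known to signal largely through the alternative NF-kB pathway, in which the p100 product of Nfkb2 is processed to p52 and pairs with RelB. This signalling is required for medullary development and for the appearance of mTEC that express Aire, the factor behind much of the expression of tissue-restricted self-antigens. CD80 and CD86 bind CD28 and CTLA-4 on T cells and are used as markers of mature mTEC.

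Promoter sequences were printed for the member genes listed in the RefSeq promoter table (GRCm38.p6), since members that are themselves NF-kB subunits or targets can be compared by the sites upstream of them. Of the 10 genes, 5 were listed. Each run below holds 250 bases before a transcription start, 5′ to 3′ on the strand of the gene, and capitals mark every match of the 10-base NF-kB consensus on either strand. For Nfkb2, which has 3 starts in the table, the first is shown.
Tnfrsf11a, chr1:105780473-105780722, plus strand: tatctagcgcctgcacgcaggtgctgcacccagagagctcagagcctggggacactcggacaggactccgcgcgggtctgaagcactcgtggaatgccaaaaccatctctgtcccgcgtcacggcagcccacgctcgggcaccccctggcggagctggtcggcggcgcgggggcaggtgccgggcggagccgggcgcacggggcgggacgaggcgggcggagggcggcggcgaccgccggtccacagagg
Ltbr, chr6:125313886-125314135, minus strand: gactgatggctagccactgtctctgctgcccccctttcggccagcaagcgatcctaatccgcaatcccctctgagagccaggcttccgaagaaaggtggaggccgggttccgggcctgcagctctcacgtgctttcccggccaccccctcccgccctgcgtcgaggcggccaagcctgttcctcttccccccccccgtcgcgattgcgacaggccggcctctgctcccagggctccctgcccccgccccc
Nfkb2, chr19:46304487-46304736, plus strand: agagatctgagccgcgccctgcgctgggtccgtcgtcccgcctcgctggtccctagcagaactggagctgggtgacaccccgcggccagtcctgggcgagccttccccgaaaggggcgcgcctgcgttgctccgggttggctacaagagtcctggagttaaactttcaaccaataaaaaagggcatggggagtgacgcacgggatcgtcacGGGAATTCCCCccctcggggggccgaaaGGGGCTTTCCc
Rel, chr11:23770970-23771219, minus strand: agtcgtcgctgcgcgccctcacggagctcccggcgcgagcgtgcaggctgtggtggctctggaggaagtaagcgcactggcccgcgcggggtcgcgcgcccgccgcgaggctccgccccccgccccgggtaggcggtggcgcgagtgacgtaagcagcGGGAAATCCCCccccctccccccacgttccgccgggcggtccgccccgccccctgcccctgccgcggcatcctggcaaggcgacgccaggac
Cd80, chr16:38458683-38458932, plus strand: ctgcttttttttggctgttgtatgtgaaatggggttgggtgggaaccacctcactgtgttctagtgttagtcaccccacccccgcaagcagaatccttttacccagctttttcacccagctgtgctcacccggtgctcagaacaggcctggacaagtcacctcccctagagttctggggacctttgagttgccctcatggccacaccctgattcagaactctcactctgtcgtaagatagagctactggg
The Nfkb2 promoter held 3 matches, of which a pair overlapped and began 39 and 38 bases before the start, and the other began at 11 bases. Its other starts held 1 match each, at 236 and 225 bases. The Rel promoter held a pair of overlapping matches at 92 and 91 bases. No match was found in the windows of Tnfrsf11a, Ltbr and Cd80. Among all 32851 promoters of the table, cut to the same 250 bases, 2382 (7.25%) held at least 1 match, and a match is a description of the letters and not of binding.

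After the study's limits on mitochondrial share and detected genes, 25750 of 28334 deposited cells remained. Clusters with thymocyte (185 cells), parathyroid (131) and thyroid (112) markers were set aside, which left 25322 epithelial-like cells. Each library held 492 to 8350 of these cells with 2151147 to 89998087 unique molecular identifiers (UMIs), and all 7 epithelial markers were detected in each of the 8 libraries. Adult cTEC replicate 1 was the shallowest library. Summed levels of 15 immediate early and stress genes stood at 546 to 995 CPM in the 3 fetal libraries and at 5410 to 20165 CPM in the 5 postnatal ones. Levels below are CPM, the UMIs of a gene summed over the epithelial-like cells of a library and scaled to the same total in every library, and 95% intervals are exact and cover counting error only. In summed libraries, fewer cells of a type and less RNA per cell cannot be told apart.

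Among the receptors, Tnfrsf11a was highest in adult mTEC, at 83.9 CPM in replicate 1 and 80.2 in replicate 2. In the cortical line it stood at 11.6 and 4.70 CPM in adult cTEC replicates 1 and 2, 2.07 in NB cTEC, 2.92 in E17.5 cTEC, 3.71 in E15.5 cTEC and 7.25 in E13.5 TEC. Both mTEC libraries thus lay above all 6 others, and the adult cTEC replicates lay on either side of the E13.5 level. That level is not a cortical one, since E13.5 TEC were not sorted on Ly51 and UEA-1. Of its 100 UMIs, 94 lay in cells with 3 or more Krt5 UMIs, described below. Tnfrsf11b encodes osteoprotegerin, the soluble decoy receptor that binds RANK ligand. Its level was 130 and 71.3 CPM in adult mTEC and 6.04 and 5.45 in adult cTEC. Before adulthood it was nearly undetected, with 1 UMI in all in NB cTEC, 2 in E17.5 cTEC, 0 in E15.5 cTEC and 7 in E13.5 TEC, and the 0 at E15.5 allows a level of up to 0.109 CPM.

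Cd40 was detected in every library. Going back from birth it stood at 39.4 (NB), 35.3 (E17.5), 20.5 (E15.5) and 11.8 CPM (E13.5), at 21.8 and 29.7 in adult cTEC, and at 186 and 144 in adult mTEC. Up to birth each older stage had the higher level, with 1 library for each, and all 6 cortical libraries lay below adult mTEC. Ltbr, by contrast, was lowest in adult mTEC. Its level was 48.3 and 56.2 CPM in adult cTEC, 69.98 in NB, 49.1 in E17.5 and 62.5 in E15.5 cTEC and 32.8 in E13.5 TEC, against 20.3 and 15.02 in adult mTEC, the lowest of the 8 libraries.

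Relb and Nfkb2, the subunits of the alternative pathway, were highest in adult mTEC. Relb stood at 242 and 245 CPM in the mTEC replicates, 136 in NB cTEC, 96.2 and 75.7 in adult cTEC, 94.6 at E17.5, 98.7 at E15.5 and 43.4 at E13.5. Nfkb2 stood at 147 and 173 in adult mTEC, between 66.0 and 72.6 in E15.5, E17.5, NB and the first adult cTEC library, and at 32.4 and 27.0 in adult cTEC replicate 2 and E13.5. For Nfkb2 the adult cTEC replicates lay far apart, so no order was drawn between adult cTEC and the other cortical libraries. Both genes were lowest at E13.5.

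Nfkb1, which encodes the p105 precursor of p50, ran from 113 to 192 CPM over the cortical line and stood at 94.3 and 78.3 in adult mTEC, again the lowest libraries. The adult cTEC values were 169 and 143. Rel, which encodes c-Rel, showed no such order. Going back from birth it stood at 60.2 (NB), 17.6 (E17.5), 31.8 (E15.5) and 32.1 CPM (E13.5), at 73.0 and 24.3 in adult cTEC and at 37.2 and 47.5 in adult mTEC. The adult cTEC replicates enclosed both mTEC values, and E17.5 and adult cTEC replicate 2, both of data set 2, were the lowest libraries.

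The costimulatory ligands had their highest levels in adult mTEC. Cd80 stood at 31.1 and 39.7 CPM in adult mTEC, and at 3.72 and 1.98 in adult cTEC. In the earlier libraries it had 1 UMI in NB, 3 in E17.5 and 0 in E15.5 cTEC and 4 in E13.5 TEC. The 0 at E15.5, again read as up to 3 UMIs, allows up to 0.109 CPM. Cd86 stood at 8.48 and 13.1 in adult mTEC, but adult cTEC replicate 1 reached 7.44 CPM (95% interval 4.25 to 12.1), which overlapped mTEC replicate 1, while replicate 2 held only 2 UMIs or 0.495 CPM. At the earlier stages Cd86 had 1 or 2 UMIs per library. CD86 is also made by dendritic cells, which a CD45- sort should remove, and the summed level of 13 dendritic and myeloid genes was 247 CPM in adult cTEC replicate 1 (11 of 13 detected, Cd209a and Adgre1 at 0), 32.2 in replicate 2 (6 of 13) and 442 and 565 in adult mTEC (all 13), whose part in the Cd86 level was not tested.

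**Figure D1:**
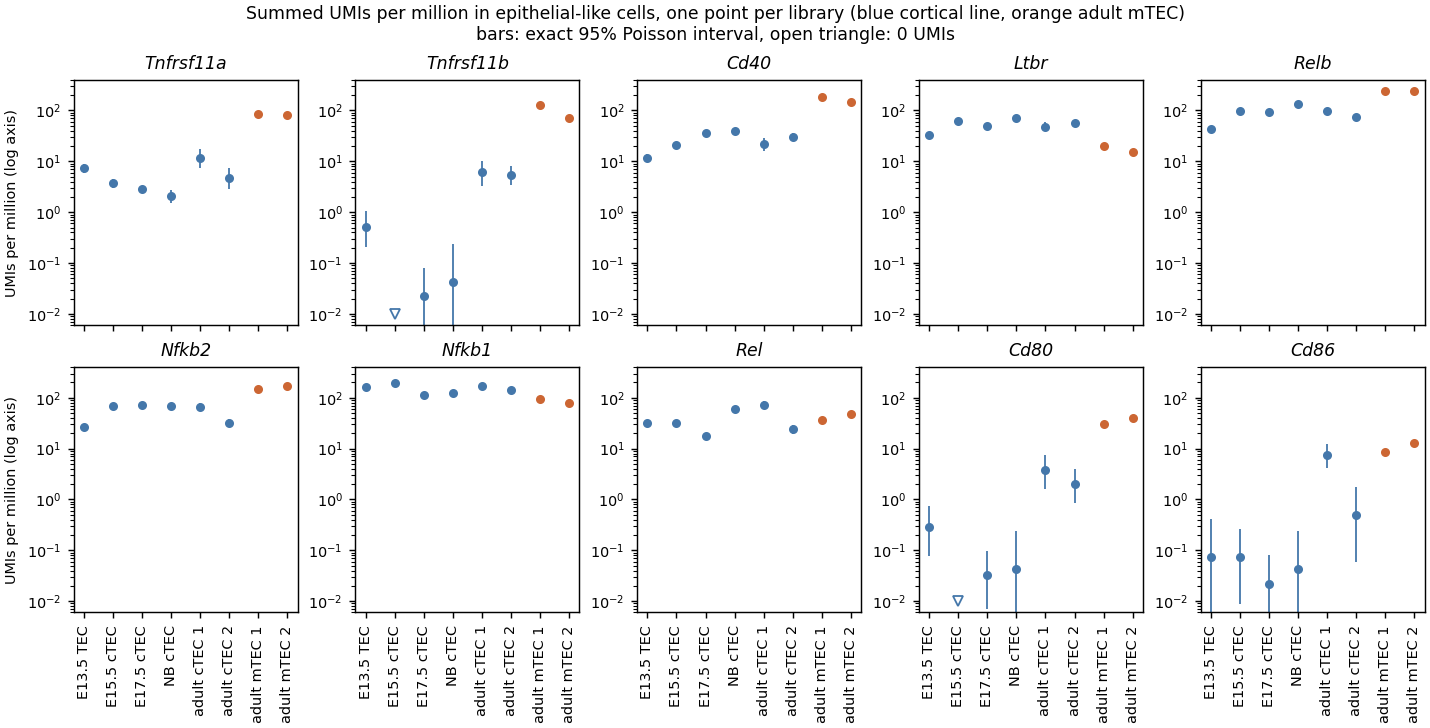
Level of each member in the 8 libraries, in CPM on a log axis, with exact 95% Poisson intervals (open triangles: 0 UMIs). The adult mTEC points are the highest for Tnfrsf11a, Tnfrsf11b, Cd40, Relb, Nfkb2, Cd80 and Cd86 and the lowest for Ltbr and Nfkb1, and Tnfrsf11b, Cd80 and Cd86 are at 7 UMIs or fewer in each library before adulthood.

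Whether the members changed with age was asked along the cortical line by the slope over 5 ranked stages, from E13.5 as the first to adult as the last, in 6 libraries, with the data set as a term. None of the 9 members tested passed the edgeR quasi-likelihood test after Benjamini-Hochberg adjustment over all genes, beside 8.22% of 14285 genes called in either direction and 5.15% called higher with age. Cd86 was too low to be tested. Of all genes, 3992 had an unadjusted p under 0.05, among them 1 member, Rel. Rel had a slope of 0.31 ± 0.08 (SE) log2 units per stage (edgeR adjusted p = 0.0579). DESeq2 called it with a slope of 0.31 (adjusted p = 0.00133), and without the term for the data set the edgeR adjusted p was 0.373. The stress genes above were higher at the later ages, and their part in this slope was not tested.

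The slopes of the other members were small or poorly fixed. That of Cd40 was 0.22 ± 0.16, of Relb 0.18 ± 0.16, of Ltbr 0.12 ± 0.12, of Nfkb2 0.07 ± 0.19, of Nfkb1 -0.02 ± 0.09 and of Tnfrsf11a 0.13 ± 0.21 log2 units per stage (SE). Tnfrsf11b (1.21 ± 0.68) and Cd80 (1.25 ± 0.63) had larger slopes with larger errors. Without the E13.5 library, which was not sorted on Ly51 and UEA-1, these were the 2 members called, beside 6.02% of 14544 genes called higher, with slopes of 4.24 for Tnfrsf11b (edgeR adjusted p = 0.00675) and 3.29 for Cd80 (adjusted p = 0.0274). These slopes rest on adult cTEC libraries with 13 and 22 UMIs of Tnfrsf11b and 8 and 8 UMIs of Cd80. In adult cTEC replicate 2, cells without a UMI of the cortical genes Psmb11 or Prss16 had 27.8 CPM of Tnfrsf11b and 10.4 of Cd80, against 1.73 and 0.577 in cells with one. In replicate 1 the values were 7.29 and 3.64 CPM without and 5.62 and 3.75 with such a UMI, from 2 to 9 UMIs each.

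Adult cTEC and adult mTEC were compared over 4 libraries, with the data set as a term. Most of the members were lower in cTEC, led by the receptors of RANK ligand and by Cd80, and Ltbr was higher. The 7 lower ones were 7 of 10 tested, beside 20.8% of 15626 genes, and the higher one was 1 of 10, beside 10.9%. The median difference of the 10 members was -1.91 log2 units, cTEC minus mTEC, and that of all genes tested was -0.14. The summed stress genes stood at 20165 and 11914 CPM in adult cTEC against 9879 and 5410 in adult mTEC, and their part in the differences was not tested. The labels do not say whether the libraries came from separate animals, so these p-values measure the spread between libraries only.

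The largest differences were those of Tnfrsf11b, Cd80 and Tnfrsf11a. Tnfrsf11b was lower in cTEC by -4.11 ± 0.45 log2 units (SE, edgeR adjusted p = 1.74e-09), and mTEC exceeded cTEC 21.5-fold in data set 1 and 13.1-fold in data set 2. Cd80 differed by -3.78 ± 0.51 (adjusted p = 1.64e-07), 8.36-fold and 20.04-fold. Tnfrsf11a differed by -3.53 ± 0.45 (adjusted p = 4.28e-08), 7.22-fold and 17.05-fold. The receptor of RANK ligand and its soluble decoy were thus both higher in the medullary libraries. In adult cTEC replicate 2, 13 of the 19 Tnfrsf11a UMIs lay in the 109 cells without a UMI of Psmb11 or Prss16 (22.6 CPM, against 1.73 in the 426 others). Replicate 1 had the other order, with 9.11 CPM in cells without and 12.5 in cells with such a UMI. With the cTEC limited to cells holding such a UMI, a setting added after seeing the data, the differences were -5.00 for Tnfrsf11b, -4.45 for Cd80 and -4.03 for Tnfrsf11a.

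Cd40 differed by -2.74 ± 0.41 log2 units (edgeR adjusted p = 1.20e-06), with mTEC 8.51-fold and 4.84-fold above cTEC. Nfkb2 differed by -1.85 ± 0.40 (adjusted p = 0.000349) and Relb by -1.58 ± 0.39 (adjusted p = 0.00135). Within data sets 1 and 2, mTEC stood 2.22-fold and 5.33-fold higher for Nfkb2 and 2.52-fold and 3.23-fold higher for Relb. Ltbr was the member higher in cTEC, by 1.51 ± 0.40 log2 units (adjusted p = 0.00317), 2.38-fold in data set 1 and 3.74-fold in data set 2. With 1 library left out, the term for the data set had to be dropped too and the lone library of a lineage was assumed to vary like the other lineage. In these refits Ltbr lost the call without adult cTEC replicate 2 (edgeR adjusted p = 0.0649), adult mTEC replicate 1 (0.0702) or adult mTEC replicate 2 (0.206), and Relb (0.107) and Nfkb2 (0.110) lost it without adult mTEC replicate 2, whereas all 3 kept it when only the term was dropped.

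Cd86 passed the test (-1.96 ± 0.67, edgeR adjusted p = 0.0210) on 1 pair of libraries. In data set 1 the ratio of mTEC to cTEC was 1.14, and in data set 2 it was 26.4, from 2 UMIs in cTEC, with a 95% counting interval of cTEC over mTEC of 0.00457 to 0.137. Dropping the term for the data set alone gave -1.75 (edgeR adjusted p = 0.227), leaving out adult cTEC replicate 2 as well gave -0.74 (0.314), and DESeq2 gave an adjusted p of 0.212.

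Nfkb1 was higher in cTEC by similar amounts in both data sets, 1.79-fold and 1.82-fold, and its fitted difference of 0.78 ± 0.37 did not pass the test (adjusted p = 0.107). Rel differed by -0.06 ± 0.42 (adjusted p = 0.929), the sum of opposite directions, since cTEC stood 1.96-fold above mTEC in data set 1 and mTEC 1.96-fold above cTEC in data set 2. The data sets thus gave no common direction for Rel.

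**Figure D2:**
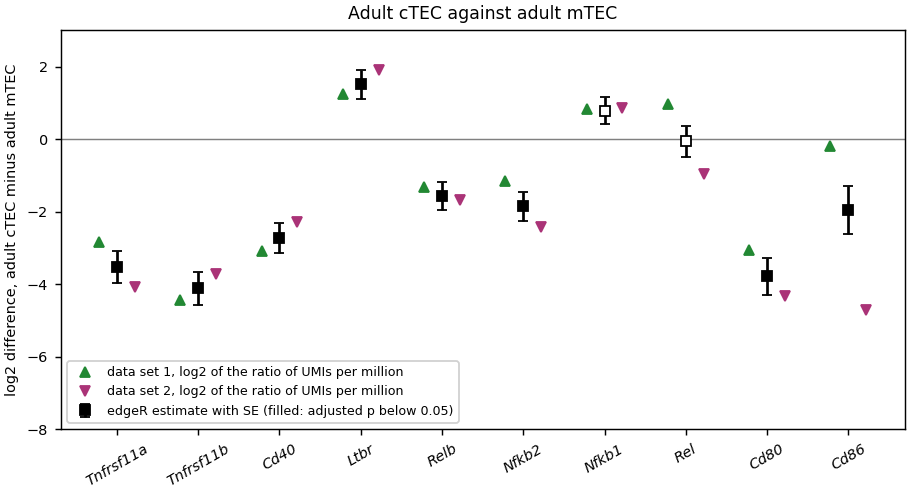
Difference of each member between adult cTEC and adult mTEC, in log2 units, as the edgeR estimate with its SE (squares, filled where the adjusted p was below 0.05) and as the ratio of CPM within each data set (triangles). Rel lies at 0.97 in data set 1 and at -0.97 in data set 2, each other member lies on 1 side of 0 in both, and Cd86 lies at -0.19 and -4.72.

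Shares of cells with a UMI were compared after each cell was thinned to 3000 UMIs. In adult mTEC replicates 1 and 2, Tnfrsf11a was found in 20.9% (95% exact binomial interval 19.0 to 23.0) and 20.1% (19.0 to 21.2) of cells, against 3.24% and 0.786% of adult cTEC. Cd40 was found in 29.4% and 28.3% of mTEC and in 5% and 7.07% of cTEC, and Relb in 45.2% and 47.2% of mTEC and in 24.1% and 18.9% of cTEC. Cd80 was found in 7.11% and 10.8% of mTEC and in 0.882% and 0.982% of cTEC. For Ltbr the order was reversed, with 7.04% and 4.79% of mTEC and 14.1% and 15.52% of cTEC. In all, 7 members had a higher share in both mTEC than in both cTEC libraries, beside 36.2% of the 15626 genes tested between lineages, and 2, Ltbr and Nfkb1, a lower one, beside 27.4%. The 7 included Cd86, at 1.78% and 3.13% against 1.18% and 0.196%. Without thinning, which leaves mTEC deeper, 8 members had a higher share, beside 64.1% of all genes, and 0 a lower one, beside 9.46%, with Ltbr in 18.6% and 15.9% of mTEC and 17.9% and 33.5% of cTEC.

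Before thinning the medians were 9499 and 11386 UMIs per cell in adult mTEC and 3952 and 7062 in adult cTEC, and the unthinned shares of Tnfrsf11a were 51.6% and 53.7% of mTEC and 4.47% and 2.99% of cTEC. For comparison, the parathyroid-like and thyroid-like cells of the E13.5 library were taken, with medians of 4266.5 and 5577 UMIs. After thinning, Tnfrsf11a, Tnfrsf11b, Cd80 and Cd86 were found in 0 of 108 parathyroid-like and 0 of 102 thyroid-like cells. Read as up to 3 cells, a 0 allows shares of up to 2.78% and 2.94%. Cd40 was found in 0 of 108 and in 1.96% of these cells. These limits come from few cells of another library, so they do not measure the free RNA of the adult libraries. Whether the low adult cTEC shares of Tnfrsf11a, Tnfrsf11b, Cd80 and Cd86, or the Cd86 share of adult mTEC replicate 1, were expression was not tested. Relb was found in 2.78% and 1.96% and Nfkb1 in 13.9% and 2.94% of the parathyroid-like and thyroid-like cells. Before thinning, Ltbr was found in 12.9% of 124 parathyroid-like cells.

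The thymocyte-like cells of the NB library, set aside for their T cell genes, had member levels near those of the NB cTEC. Cd40 stood at 40.9 CPM in these 169 cells and at 39.4 in the NB epithelial-like cells. The corresponding values were 61.7 and 69.98 for Ltbr, 160 and 136 for Relb, and 55.2 and 60.2 for Rel. Cd80, Cd86 and Tnfrsf11b had 0 UMIs in them. These droplets were left out of the comparisons and not used as a background.

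Within adult mTEC, cells with 5 or more Aire UMIs (527 in replicate 1 and 1988 in replicate 2) were compared with cells without an Aire UMI (768 and 1414), with the library as a block. The classes were cut from a count, and 51 and 274 cells lay at 4 Aire UMIs and 44 and 228 at 5. In both libraries 7 members had higher levels in the Aire-high cells, beside 39% of 15513 genes, and 2 had lower ones, beside 43.4%, namely Ltbr and Nfkb1, the latter with the opposite sign in the fit. No member passed the test. In edgeR 0 of 15513 genes were called (0%), although 5632 had an unadjusted p under 0.05, among them 8 of the 10 members. DESeq2 called 2532 genes, among them 5 members higher, beside 9.15% of all genes, and 1 lower, beside 7.17%. Simulated counts of the same libraries had 200 genes changed by 2 log2 units. These were drawn from genes above an average log2 CPM of 5, and all others were left unchanged. There edgeR recovered 99.0% of the changed genes. In the data, Tnfrsf12a, at -3.28 log2 units, was not called (edgeR adjusted p = 0.0626), so this recovery does not give the power of the test here.

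Cd40 had the smallest unadjusted p. It stood at 301 and 200 CPM in the Aire-high cells of replicates 1 and 2, against 61.4 and 64.4 in cells without Aire, a difference of 1.99 ± 0.20 log2 units (SE, edgeR adjusted p = 0.0626). In between, cells with 1 to 4 Aire UMIs had 157 and 108, cells with 5 to 9 had 253 and 170, and cells with 10 or more had 335 and 225 CPM. The order was the same in both libraries, with a wider range in replicate 1.

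Cd80 and Tnfrsf11b were also highest in the class with the most Aire, with larger differences between libraries. Cd80 stood at 46.8 and 51.5 CPM in Aire-high cells and at 9.07 and 21.6 in cells without Aire (1.80 ± 0.32, edgeR adjusted p = 0.0640). Tnfrsf11b stood at 209 and 94.8 against 44.9 and 50.4 (1.59 ± 0.36, adjusted p = 0.0756), and in replicate 2 its level in cells with 1 to 4 Aire UMIs, 51.0, was close to that without Aire. Cd86 stood at 14.7 and 17.2 against 0.495 and 6.91 (2.47 ± 0.83, adjusted p = 0.131), and the ratio in replicate 1 was 29.7 with a 95% counting interval of 9.89 to 146, from 3 UMIs in the cells without Aire.

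Relb and Nfkb2 had smaller differences. Relb stood at 311 and 288 CPM in Aire-high cells and at 157 and 176 without Aire (0.88 ± 0.13, edgeR adjusted p = 0.0626). Nfkb2 stood at 181 and 206 against 107 and 134 (0.72 ± 0.13, adjusted p = 0.0642). Tnfrsf11a differed little, with 95.4 and 83.7 against 61.7 and 68.5 (0.49 ± 0.15, adjusted p = 0.116), and its level did not climb above that of cells with 1 to 4 Aire UMIs, 99.4 and 80.9, in the highest class, 94.4 and 79.4.

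Ltbr had the opposite order along the same classes. Its level was 33.0 and 23.9 CPM without Aire, 19.6 and 18.2 with 1 to 4 Aire UMIs, 12.5 and 10.0 with 5 to 9 and 8.56 and 8.77 with 10 or more (-1.48 ± 0.22 for 5 or more against 0, edgeR adjusted p = 0.0626). Nfkb1 stood at 95.9 and 78.8 against 97.2 and 79.1 (0.02 ± 0.14, adjusted p = 0.934), so the sign of this small difference depends on the scaling. Rel stood at 40.0 and 45.3 against 28.2 and 51.6, higher in replicate 1 and lower in replicate 2 (0.18 ± 0.22, adjusted p = 0.590).

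The classes differed in depth, cell cycle, stress genes and immune markers. Median UMIs per cell were 13321 and 15529 in Aire-high cells and 7278.5 and 7240 without Aire. Cells with 3 or more UMIs of 14 proliferation genes made up 38.9% and 63.8% against 14.3% and 25.2%. This limit is a raw count that deeper cells pass more easily, and the summed level of these genes was 603 and 643 against 320 and 425 CPM. The share of cells with a Cd40 UMI after thinning to 6000 UMIs was 72.8% and 63.5% in Aire-high cells and 27.5% and 27.4% without Aire. Among cells of 8000 to 20000 UMIs the differences were 1.86 for Cd40, 1.89 for Cd80 and -1.42 for Ltbr. Among cells under the proliferation limit they were 2.24, 1.91 and -1.45 log2 units. In both settings edgeR called 0 of all genes. The Cd40 shares kept the first classes, whereas the fit after thinning to 6000 UMIs set the classes again on the thinned counts. It held 443 and 1596 Aire-high cells and 624 and 1478 without Aire, and edgeR called 923 genes and 2 members. The summed stress genes stood at 5706 and 3787 CPM in Aire-high cells against 15814 and 8586, the 12 thymocyte genes at 63.1 and 50.8 against 11.2 and 27.9, and the 6 B cell genes at 48.4 and 56.4 against 10.1 and 31.4, and their part in the differences was not tested. The summed level of 13 dendritic and myeloid genes was 810 and 728 CPM in Aire-high cells against 60.4 and 336. Most of it was Lyz2, at 696 and 582 against 48.2 and 262, and Fcer1g, at 69.2 and 103 against 5.77 and 56.7. Tyrobp stood at 13.1 and 14.2 against 1.32 and 4.73, and Ptprc, the common leukocyte antigen, at 2.45 and 1.98 against 1.65 and 1.91. Without cells holding 2 or more immune marker genes, an alternative added after seeing the data, the difference of Cd40 was 1.94 and of Cd80 1.86 log2 units, and edgeR called 2319 genes and 6 members. This limit is also a raw count, and it left 223 and 457 Aire-high cells and 731 and 989 cells without Aire.

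**Figure D3:**
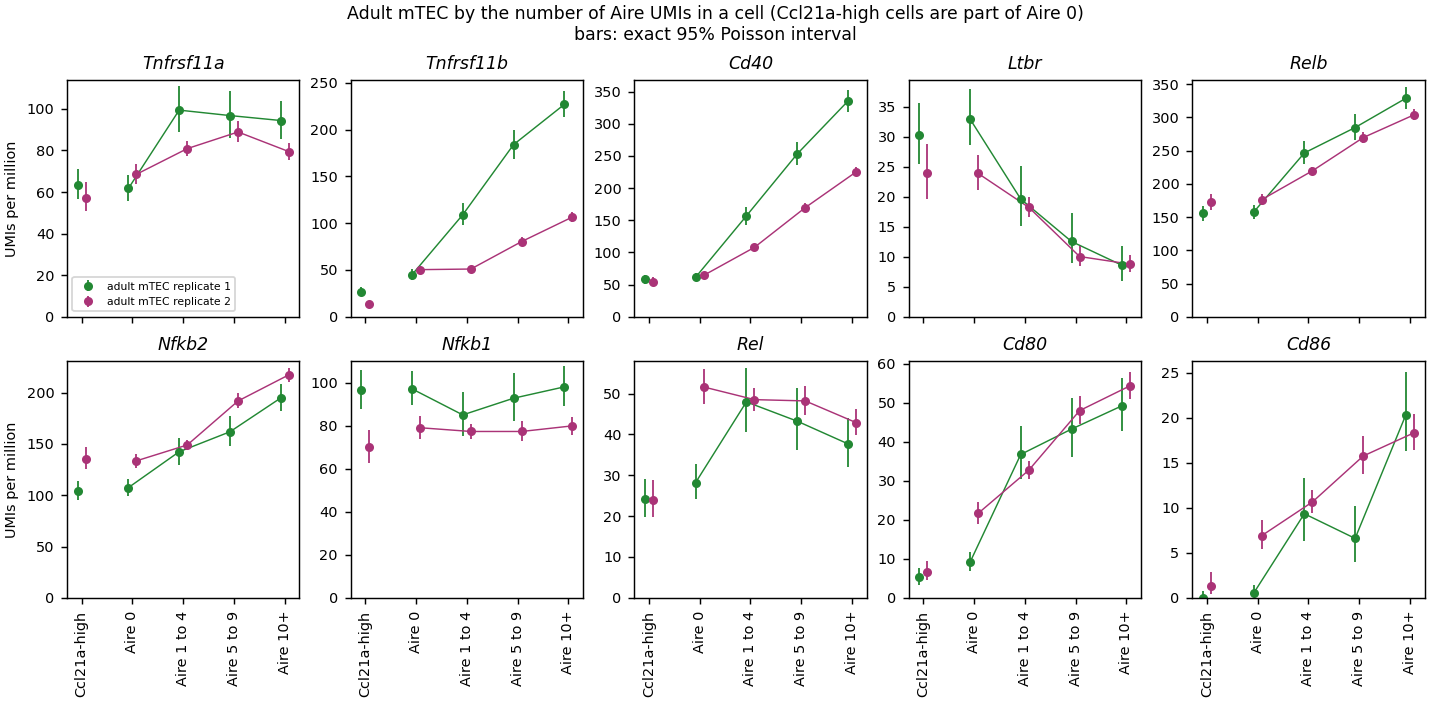
Level of each member in adult mTEC by the number of Aire UMIs per cell, in CPM with exact 95% Poisson intervals, for both libraries, beside the Ccl21a-high cells that are part of the Aire 0 class. Cd40 is at 61.4 and 64.4 without Aire and at 335 and 225 at 10 or more Aire UMIs, Ltbr is at 33.0 and 23.9 against 8.56 and 8.77, and Nfkb1 stays between 77.3 and 98.1 over these classes.

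Cells without Aire are a mixture, so the Aire-high cells were also compared with cells that had no Aire UMI and 20 or more UMIs of Ccl21a, a chemokine of a separate mTEC subset (586 and 535 cells). Here 8 of the 10 members were higher in Aire-high cells, beside 24.7% of 14181 genes, and 1 was lower, beside 18.9%. The median difference of the members was 0.83 log2 units and that of all genes 0.02. Both comparisons share the Aire-high cells. Other sums moved with these classes. In Aire-high against Ccl21a-high cells of replicates 1 and 2, stress genes stood at 5706 and 3787 against 17074 and 10877 CPM, proliferation genes at 603 and 643 against 259 and 447, and thymocyte genes at 63.1 and 50.8 against 10.0 and 16.4, and their part was not tested. Without proliferating cells the member counts were again 8 and 1, beside 3284 higher and 2262 lower of 13271 genes. Without cells holding 2 or more immune marker genes they were also 8 and 1, beside 2298 and 2127 of 12370 genes. That limit left 223 and 457 Aire-high cells. In simulated counts 15.7% of the calls of this test were false, above the 5% aimed at, so a call near the threshold carries less weight.

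The costimulatory ligands and the decoy receptor differed most. Cd80 stood at 5.22 and 6.68 CPM in Ccl21a-high cells, a difference of 3.03 ± 0.18 log2 units (edgeR adjusted p = 0.00696). Cd86 had 0 UMIs in those of replicate 1. With this 0 read as up to 3 UMIs, the Aire-high cells were at least 22.5-fold higher there. In replicate 2 it had 1.29 CPM, a 13.3-fold difference (edgeR adjusted p = 0.0136 over both replicates). The dendritic and myeloid sum stood at 810 and 728 CPM in Aire-high against 16.5 and 126 in Ccl21a-high cells, and its part in the Cd86 difference was not tested. Tnfrsf11b stood at 27.0 and 13.6 CPM (2.87 ± 0.14, adjusted p = 0.00696). These 3 genes had lower levels in Ccl21a-high cells than in the whole class without Aire.

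Cd40 differed by 2.11 ± 0.17 log2 units (edgeR adjusted p = 0.00721), Relb by 0.86 ± 0.13 (adjusted p = 0.0134) and Nfkb2 by 0.68 ± 0.12 (adjusted p = 0.0188). Rel, which had no common direction against all cells without Aire, was higher than in Ccl21a-high cells in both libraries, 40.0 and 45.3 against 24.1 and 23.9 CPM (0.81 ± 0.15, adjusted p = 0.0194). Tnfrsf11a differed by 0.55 ± 0.12 (adjusted p = 0.0285), and the call was lost without the block (0.0531), with all deposited cells (0.0542) and with DESeq2 (0.122). Ltbr was lower by -1.47 ± 0.18 (adjusted p = 0.00974), and Nfkb1 differed by 0.07 ± 0.13 (adjusted p = 0.708).

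Smaller classes of mTEC without Aire are described without a test. Cells with at least 3 keratinisation genes numbered 23 and 188, and cells with at least 3 tuft cell genes 13 and 71. In the keratinised class Cd80 stood at 31.5 and 46.9 CPM, against 46.8 and 51.5 in Aire-high cells, and Tnfrsf11b at 233 and 66.6. Rel stood at 101 and 84.2 in keratinised and at 39.9 and 99.2 CPM in tuft cells, above the Ccl21a-high cells of the same library. The tuft class had low Cd80, at 0 and 4.05, and low Relb, at 69.8 and 89.1 CPM. With 13 cells the replicate 1 values of the tuft class rest on few UMIs.

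At E13.5 the levels of some members differed between cells by the keratin gene Krt5, a marker of the medullary line. The class boundary was chosen with the data known, and the single library allows no test. In 363 cells with 3 or more Krt5 UMIs, Tnfrsf11a stood at 30.7 CPM (95% interval 24.8 to 37.6), against 0.247 (0.0299 to 0.893) in 1045 cells without Krt5. Cd40 stood at 45.8 (38.5 to 54.0) against 1.98 (1.13 to 3.21). These levels rest on 94 and 2 UMIs of Tnfrsf11a and on 140 and 16 UMIs of Cd40.

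Relb and Nfkb2 had the same order as these receptors. Relb stood at 99.8 CPM in the Krt5-high cells against 25.7, and Nfkb2 at 63.1 against 16.7. Nfkb1 had the opposite order, with 77.2 against 193, while Ltbr (42.2 against 29.2) and Rel (33.4 against 29.4) differed less. Cd80 had 3 UMIs and 1 UMI, Tnfrsf11b 5 and 1, and Cd86 none in either class. Median depth was 7862 and 7213 UMIs per cell, Aire stood at 6.87 and 0.124 CPM (21 UMIs and 1 UMI), Foxn1 at 76.9 and 94.1, Psmb11 at 141 and 268, and Cldn3, a claudin of medullary precursors, at 73.9 and 7.17 CPM.

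**Figure D4:**
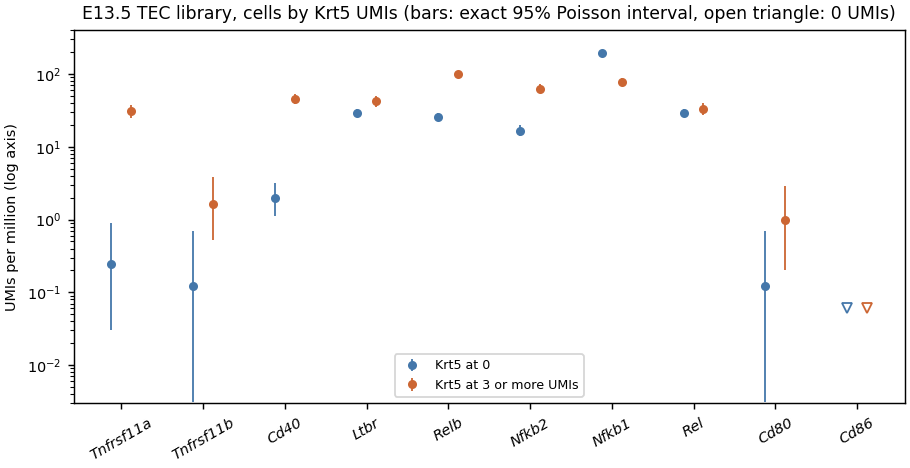
Level of each member in E13.5 cells with 3 or more Krt5 UMIs (orange) and without Krt5 (blue), in CPM on a log axis with exact 95% Poisson intervals (open triangles: 0 UMIs). Tnfrsf11a is at 30.7 against 0.247 and Cd40 at 45.8 against 1.98, Nfkb1 is lower in the Krt5-high cells, and Cd86 is at 0 in both.

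The other genes of the pathway were counted by role, to be read beside the 20.8% of all genes lower and 10.9% higher in adult cTEC, the 24.7% higher and 18.9% lower against Ccl21a-high cells, and the 5.15% that rose with age. Named genes are those with the largest differences above an average log2 CPM of 3. Tnfrsf19, the age slope of Nfkbid and the values of Cd28 fall outside that rule and were added after their values were seen. The age calls of all lists, 13 genes, rest on adult cTEC replicate 1, without which 0 of the 13 were called. The same held for most genes, as calls over all genes fell from 1174 to 24. Without adult cTEC replicate 2 there were 8, and for postnatal against fetal libraries 1, Nfkbiz. Of 6 ligands, Tnfsf11 (RANK ligand), Cd40lg and Tnfsf14 (LIGHT) were too low to be tested between adult lineages, at 1.25 CPM or less in every library. Ltb, Lta and Tnf were lower in adult cTEC, by -3.35, -4.27 and -3.04 log2 units, and higher in Aire-high than in Ccl21a-high cells, by 1.95, 3.74 and 2.19. Lta had 1 UMI in each adult cTEC library, so its fitted difference there is poorly fixed. Lymphocytes, which a CD45- sort should remove, also make these cytokines. Between lineages the B cell genes stood at 2.32 and 3.22 CPM in adult cTEC against 32.3 and 46.8 in mTEC, and the thymocyte genes at 47.9 and 112 against 37.3 and 37.1. In Aire-high against Ccl21a-high cells the B cell genes stood at 48.4 and 56.4 against 5.001 and 12.3 CPM, beside the thymocyte genes given above, and the part of either was not tested. Ltb encodes the membrane-bound partner of lymphotoxin alpha and stood at 68.7 and 73.2 CPM in adult mTEC. With age, 0 of the 2 ligands tested were called.

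Of 15 adaptors and kinases, all tested, 2 were higher and 2 lower in adult cTEC, near or under the shares of all genes. The adaptor gene Traf1 was lower (-2.84) as was Ikbkb, the IKK beta kinase gene (-1.16), and Tab1 (1.23) and Ripk1 (1.16) were higher. Against Ccl21a-high cells 4 were higher and 5 lower, led by Traf5 (-2.72), Traf1 (1.74), Birc2 (1.66) and Ripk1 (-1.58). With age, Ripk1 (0.77 per stage) and Birc3 (0.62) rose and 0 fell. Map3k14, which encodes the NIK kinase of the alternative pathway, was not called and stood at 17.9 and 21.2 CPM in adult mTEC and 25.6 and 19.1 in adult cTEC.

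Of 10 NF-kB inhibitors and related genes, 3 were lower in adult cTEC, namely Tnip1 (-2.43), Nfkbid (-2.12) and Nfkbie (-1.85), and 2 were higher, among them Nfkbiz (1.84), counts not far from the shares of all genes. Against Ccl21a-high cells 5 were higher, among them Nfkbid (1.72) and Nfkbie (1.39), and 4 lower, among them Nfkbiz (-2.46) and Tnfaip3 (-2.06). The summed stress genes were at 5706 and 3787 CPM in Aire-high against 17074 and 10877 in Ccl21a-high cells, and their part here was not tested. In the age trend 4 rose and 0 fell, namely Nfkbiz (1.47 per stage), Nfkbid (1.02), Tnfaip3 (0.97) and Nfkbia (0.52), which encodes IkB alpha. These ages also differed in the summed stress genes given above, whose part in these slopes was not tested.

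Of 14 other TNF receptors, 12 were tested between lineages. Lower in adult cTEC were 3, Tnfrsf4 (OX40, -4.49), Tnfrsf9 (4-1BB, -3.73) and Fas (-2.87), and 3 were higher, among them Tnfrsf18 (GITR, 1.88) and the lower expressed Tnfrsf19 (2.49). Against Ccl21a-high cells 4 were higher, with Tnfrsf9 at 4.20 and Tnfrsf4 at 3.89, and 3 were lower, with Tnfrsf12a at -3.65 and Tnfrsf1a at -2.17. With age, 1 of 13 rose, Fas, at 0.78 per stage.

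Of 14 other costimulation genes, mostly ligands but with the T cell receptors Cd28 and Ctla4, 12 were tested between lineages, with 5 lower and 2 higher in adult cTEC. Icosl (-5.11), Cd70 (-3.72) and Tnfsf9 (-3.43) were lower, and Cd274, which encodes the inhibitory ligand PD-L1, was higher (2.79), as was Cd28 (1.83). Against Ccl21a-high cells 3 of 10 were higher, Cd70 (3.16), Icosl (2.59) and Tnfsf9 (2.51), and 4 lower, among them Pvr (-3.14) and Cd28 (-2.82). In the age trend 3 of 10 rose, namely Cd28 (1.44 per stage), Cd274 (0.79) and Icam1 (0.73).

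Of 11 genes used as medullary targets of the pathway, 8 were lower and 0 higher in adult cTEC, led by Aire (-6.39), Csn2 (-6.05), Irf4 (-5.45) and Ccl22 (-5.41). Against Ccl21a-high cells 7 of 9 were higher and 0 lower, led by Csn2 (4.37), Ccl22 (3.59), Irf4 (1.76) and Fezf2 (1.45). Aire and Ccl21a, which are on this list and define these classes, were left out of that test. In the age trend 3 of 10 rose, among them Ccl19 at 1.95 per stage. The 7 mTEC markers, some of them on this list, summed to 6145 and 1298 CPM in adult cTEC. In the earlier libraries they summed to 167 to 907 CPM, and the part of medullary cells in this rise was not tested. Against all cells without Aire, 0 genes of any list were called by edgeR, as for all genes.

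Genes with the most similar profile over the 8 libraries were found by Pearson's r of log2(CPM + 1), as a description over libraries that share data sets and lineages. For Tnfrsf11a these were Snx8, Bcl2l14 and 4930579C12Rik (0.992 to 0.995). For Tnfrsf11b they were Skint2, Il2rg and Cdx1 (0.995 to 0.996), and for Cd40 Cib1, Arsb and Hspb11 (0.980 to 0.988). Relb was closest to Mif4gd, Ankrd33b and Zfp954 (0.976 to 0.983), Nfkb2 to Irf5, Rhbdl2 and Mfhas1 (0.954 to 0.969), Nfkb1 to Myof, Dlg1 and Ccni (0.955 to 0.959) and Rel to Mul1, Gphn and Atp6v0a2 (0.949 to 0.964). Cd80 was closest to Pla1a, Tnfrsf9 and Gm14275 (0.998) and Cd86 to Iapp, Ly6i and Man1b1 (0.983 to 0.997). Among the members themselves, r was 0.99 between Tnfrsf11b and Cd80, 0.95 between Relb and Nfkb2 and -0.93 between Tnfrsf11a and Ltbr.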

How the data were processed

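Libraries were Chromium v2 single-cell libraries. The authors deposited raw UMI counts per gene and cell, without normalization. The submitters' processing notes name bcl2fastq 2.17, STAR 2.5.1b, Cell Ranger 2.0.1 and mm10, and the matrix headers of data set 2 name version 3.0.1. Genes in both lists (27514) held 99.1% or more of the UMIs. Cells above 5% mitochondrial UMIs or 5000 genes were left out as in the study, and no doublet caller was run. Cells were clustered per data set (scanpy 1.11.5, leidenalg 0.10.2, 20 components, resolution 0.8). A cluster took a non-epithelial name when at least 3 markers, and at least 50% of the list, were at least 4-fold higher, a rule set on the data.

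Counts were summed per library, or per library and Aire class, and fitted across all genes in edgeR 4.0.16 (filterByExpr, TMM, quasi-likelihood test, Benjamini-Hochberg, threshold 0.05), with DESeq2 1.42.0 as an alternative, in R 4.3.3. Standard errors are the estimate over the root of its F statistic. The data set term pairs adult libraries of the same number, whose deviations from their group means had r = 0.27 over 15626 genes. Tests were checked on simulated data, where edgeR recovered 98.5% (age trend, 1 log2 unit per stage), 68.5% (adult lineages, 2 log2 units), 99.0% (Aire classes) and 99.5% (Aire-high against Ccl21a-high) of 200 changed genes, and 7.08%, 0%, 8.33% and 15.7% of the calls were false. The changed genes were drawn from the better expressed ones and all others were left unchanged. These rates therefore do not give the power in the data. Barcodes shared between libraries were at most 1.17% of the smaller library. All members are named. Of each pathway list the up to 4 called genes with the largest difference and an average log2 CPM above 3 are named, and of the ligands all. The members, lists and classes were chosen with earlier results of these data known. The genes most similar to Ltbr are not reported here.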

Additional observations from a re-analysis of the deposited data

Results flagged for a closer look

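Cells left out for more than 5000 detected genes numbered 34 in adult mTEC replicate 1 and 338 in replicate 2, and they carried signal outside the comparisons. Of them, 94.1% and 83.4% had 5 or more Aire UMIs, against 33.2% and 35.4% of the cells within the limits. The Aire limit is a raw UMI count, so a deeper cell passes it more easily. Of the same cells 70.6% and 82.2% held 2 or more immune marker genes, against 26.2% and 54.6%. Cd40 stood at 220 and 154 CPM in these cells, Cd80 at 34.6 and 26.4 and Tnfrsf11b at 95.3 and 63.4. At least 3 UMIs of proliferation genes were found in 97.1% and 99.7% of them. Their median depth was 31591.5 and 31324.5 UMIs, against 9500.5 and 11386 within the limits. The immune and proliferation limits are raw counts too, so deeper cells also pass them more easily. Whether they were doublets was not tested.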

How the results depend on the processing

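Between adult lineages, 8 members were called, and 4 to 8 when 1 library was left out. These refits also dropped the data set term and left a lineage with 1 library, assumed to vary like the other. The lowest count, 4, came without adult mTEC replicate 2, where Ltbr, Relb, Nfkb2 and Cd86 were lost and 1020 genes were called, against 4954 in full and 4145 when only the term was dropped. With all 4 libraries every setting gave 7 or 8, and Cd86 was lost with no replicate block (no data set term, 7 called), with DESeq2, without cells holding 2 or more immune marker genes and in cTEC with a Psmb11 or Prss16 UMI. DESeq2 called 2574 genes. In the age trend 0 members were called, and 0 to 2 when either adult cTEC library, E13.5 or NB was left out. E15.5 and E17.5 were not left out in turn. DESeq2 called 1 (Rel) and the fit without proliferating cells 1 (Tnfrsf11b, beside 845 of 13216 genes). The genes called, 1174, were 24 without adult cTEC replicate 1, 501 without replicate 2, 13 for postnatal against fetal, 534 in data set 1 only and 2938 with DESeq2. For 5 or more Aire UMIs against 0, the 0 members called became 4 with all deposited cells, 6 with no filter on low counts, 4 with DESeq2 size factors, 6 with DESeq2, 4 at 10 or more Aire UMIs, 2 after thinning to 6000 UMIs and 6 without cells holding 2 or more immune marker genes (added after seeing the data), and stayed 0 at 3 or more Aire UMIs, in cells of 8000 to 20000 UMIs, without proliferating cells and with no replicate block. The genes called in the settings with any call were 923 to 3058. Against Ccl21a-high cells 9 members were called, 7 to 9 under all settings (7 with DESeq2, which called 3516 genes against 6184, and 7 with no replicate block). Leaving out a replicate there left 1 library, which gives a difference with no test. Fitted differences of members kept their sign under every setting run, except that of Rel between lineages and the age slopes of Ltbr, Nfkb1, Nfkb2, Relb and Tnfrsf11a, none of them called. The causes of these changes were not tested. Without thinning 8 members had a higher and 0 a lower share in both mTEC libraries (64.1% and 9.46% of all genes), and at 2000 UMIs 7 and 2 (35.8% and 26.5%). Depth limits adult cTEC, where 3 UMIs equal 1.39 and 0.743 CPM.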
